A study of Mus musculus with 8 samples.

Results

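The genes described here are 10 members of the Toll-like receptor, NF-κB and adhesion pathway, chosen by name: *Tlr2*, *Tlr4*, *Cd14*, *Myd88*, *Nfkb1*, *Rela*, *Nfkbia*, *Nfkbiz*, *Icam1* and *Vcam1*. Of these, 8 were among the 14506 genes with a value in liver, and *Tlr4* and *Cd14* are not analysed here. RNA was sequenced from whole liver of 8 C57BL/6 mice, 4 *Rragc* +/+ and 4 *Rragc* S74N/+. *Rragc* encodes RagC, a GTPase that carries nutrient signals to the kinase mTORC1, and the knock-in allele, made by CRISPR editing and present on 1 of the 2 copies, replaces a serine at residue 74 by asparagine in every cell of the mouse. The +/+ mice were 3 months old (replicates 1 to 3) and 2.5 months old (replicate 4), and the S74N/+ mice were 3 months old (replicates 1 and 2), 2.5 months old (replicate 3) and 2 months old (replicate 4), so the genotypes were not matched in age. The study asked whether inflammatory signals are already present in young mutant organs. For young liver it reported enriched inflammatory gene sets, a measure over whole sets that differs from the single-gene tests below. It also used *Vcam1* as a target for a blocking antibody in old mice, after protein measurements in kidney and RNA measurements in kidney of young and old mice. The values below are RNA of young liver. They differ from those in organ, and from those of old mice also in age.

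Toll-like receptors recognise molecules of microbes and of damaged cells, Cd14 helps Tlr4 bind endotoxin, and the adaptor MyD88 passes the signal to kinases that release NF-κB from its inhibitors. NF-κB dimers of p50 (from *Nfkb1*) and p65 (from *Rela*) then enter the nucleus. There they raise transcription of adhesion molecules, cytokines and the IκB family of NF-κB regulators. *Nfkbia* (IκBα) and *Nfkbiz* (IκBζ) therefore report recent activity as well as limit or redirect it. In liver, Kupffer cells and sinusoidal endothelium meet gut-derived endotoxin, and hepatocytes carry the pathway too.

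Matches to the DNA motif that NF-κB binds were looked for in the promoters of these genes, from 250 bases before to 50 bases after the start in RefSeq on GRCm38.p6. The table held 5 of the 8 genes. The kappa B consensus (10 letters, on either strand, overlapping matches counted) was found in *Nfkbia* and *Tlr2*, and in 4.51% of all 32851 promoters of that length. The stricter core GGAAATTCC, read on either strand and lying inside some consensus matches, was found in *Nfkbia* and *Icam1* and in 0.317% of all promoters. The 3 promoters with a match are shown 5′ to 3′ because they belong to an inhibitor, an adhesion molecule and a receptor whose levels are compared below, with the matched letters in capitals. They are *Nfkbia* (chr12:55492598-55492897, reverse strand), *Icam1* (chr9:21015690-21015989, forward strand) and *Tlr2* (chr3:83841559-83841858, reverse strand).
Nfkbia: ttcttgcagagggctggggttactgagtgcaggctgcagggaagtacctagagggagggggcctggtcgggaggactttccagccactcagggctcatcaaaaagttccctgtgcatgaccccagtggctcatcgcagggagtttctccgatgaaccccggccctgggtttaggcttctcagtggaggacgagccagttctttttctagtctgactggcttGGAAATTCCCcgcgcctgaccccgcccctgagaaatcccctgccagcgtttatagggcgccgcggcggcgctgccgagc
Icam1: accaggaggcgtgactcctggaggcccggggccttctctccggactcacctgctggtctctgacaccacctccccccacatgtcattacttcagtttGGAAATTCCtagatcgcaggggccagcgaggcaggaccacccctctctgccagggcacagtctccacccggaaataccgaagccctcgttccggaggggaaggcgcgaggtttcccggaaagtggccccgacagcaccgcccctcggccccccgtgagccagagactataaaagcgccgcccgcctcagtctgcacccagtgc
Tlr2: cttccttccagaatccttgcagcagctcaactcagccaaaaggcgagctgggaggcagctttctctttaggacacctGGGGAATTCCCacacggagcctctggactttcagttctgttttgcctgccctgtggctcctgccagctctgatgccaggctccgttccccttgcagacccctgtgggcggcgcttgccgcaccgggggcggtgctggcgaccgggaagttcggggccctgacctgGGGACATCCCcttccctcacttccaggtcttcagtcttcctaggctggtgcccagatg
The *Nfkbia* match began 29 bases before the start and the *Icam1* match 153 bases before it. The *Tlr2* promoter held 3 matches, beginning 173, 172 and 8 bases before the start, of which the first 2 overlap. No match was found in the promoters of *Rela* and *Myd88*, which says only that these letters are absent from this window. A match is not evidence of binding, and binding was not measured in these livers.

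Expression is given as normalized read counts, which are reads per gene divided by a size factor for the library. Libraries were primed at the poly(A) tail, so a long transcript yields no more reads than a short one, and levels of different genes can be set side by side on this scale. The deposited values gave back the whole reads, 4313076 to 6632108 per liver. Nothing in the labels says that livers of one genotype came from separate litters or days, so p-values measure the spread between these livers. *Rragc* itself, whose substitution need not alter its level, was at 84.1 ± 20.4 in +/+ and 76.6 ± 7.32 in S74N/+ livers (SD, n = 4). Over all 11174 genes tested with limma, 1 (0.00895%) passed an adjusted p of 0.05, *Gpx3*, which was lower in S74N/+ livers and is one of the kidney marker genes considered with *Nfkbiz* below. With DESeq2 on the recovered reads, 10 of 11162 (0.0896%) passed. Hepatocyte markers were high in every liver (summed normalized count 333229 to 590000). Kupffer cell markers (12 of 12 listed) summed to 3187 to 4896 in +/+ and 3123 to 5091 in S74N/+ livers. As single genes, 6 of these Kupffer cell markers were higher and 6 lower in S74N/+ livers.

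None of the 7 members with a mean of at least 10 normalized counts passed the adjusted test between genotypes. Without adjustment *Nfkbiz* alone had a limma p under 0.05, as did 5.17% of all tested genes. *Nfkbiz* was higher in each of the 4 S74N/+ livers than in any +/+ liver, and its mean level was 2.08 times that of +/+. Genotypes did not overlap, in either direction, in 2.94% of all tested genes. *Nfkbia*, the member with the highest level, varied 4.72-fold between livers with overlapping genotypes, whereas *Rela* varied 1.79-fold. *Icam1*, *Vcam1*, *Myd88*, *Nfkb1* and *Tlr2* overlapped between genotypes as well.

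**Figure D1:**
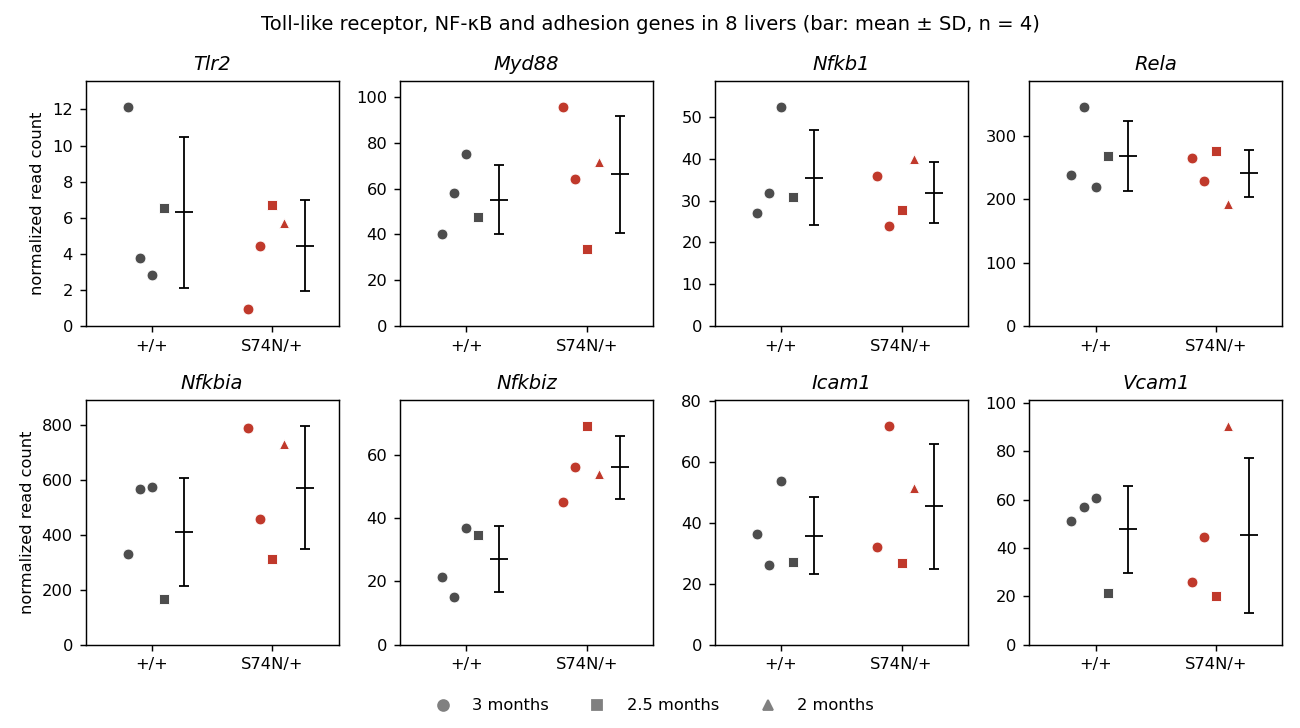
Normalized read count (linear axis from 0) of the 8 listed genes in each of 4 *Rragc* +/+ (grey) and 4 *Rragc* S74N/+ (red) livers, with symbols for age and bars for mean ± SD (n = 4). *Nfkbiz* is the only gene shown whose genotypes do not overlap (15.0 to 36.8 against 45.0 to 69.1), as in 2.94% of all tested genes. Both 2.5-month-old livers lie low for *Nfkbia* and *Vcam1*.

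Of the receptors, *Tlr2*, which recognises bacterial lipoproteins, was close to the limit of detection. Its normalized counts were 12.1, 3.74, 2.83 and 6.54 in +/+ replicates 1 to 4 and 0.918, 4.44, 6.69 and 5.71 in S74N/+ replicates 1 to 4. These stand for 1 to 13 reads per liver, the highest and the lowest liver were both 3 months old, and the genotypes overlapped. With a mean of 5.37 the gene was below the filter of the limma test. The mean difference was −0.43 on the log2(normalized count + 1) scale (exact two-sided permutation p = 0.571), and it rested on single livers, at 0.0085 without S74N/+ replicate 1 and −0.097 without +/+ replicate 1. In 3-month-old mice alone it was −0.94. The coefficient of variation over the livers was 62.3%, where counting error alone would give 42.2%.

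*Myd88*, the adaptor of most Toll-like receptors and of the IL-1 receptor, was at 40.1, 58.0, 75.0 and 47.6 normalized counts in +/+ livers and at 95.5, 64.0, 33.4 and 71.8 in S74N/+ livers. The S74N/+ group held both the highest and the lowest of the 8 livers. The log2 fold change (S74N/+ over +/+) was 0.20 ± 0.34 (SE, limma adjusted p = 0.902), and the 95% interval of the ratio ran from 0.689 to 1.92. Without S74N/+ replicate 1 the log2 fold change was −0.0025. *Myd88* shares 290 exon bases with *Acaa1a* on the opposite strand, and the authors' counting was by strand.

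The 2 DNA-binding subunits overlapped between genotypes, and neither passed the test. *Nfkb1*, which encodes the p105 precursor of p50, was at 27.0, 31.8, 52.3 and 30.8 in +/+ livers and at 35.8, 24.0, 27.9 and 40.0 in S74N/+ livers. Its highest liver was +/+ replicate 3, the library with the fewest reads, and the groups overlapped. The log2 fold change was −0.13 ± 0.33 (SE, limma adjusted p = 0.939), and 0.068 without that library.

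*Rela*, which encodes p65, the subunit with a transactivation domain, was at 239, 345, 219 and 268 in +/+ livers and at 264, 229, 276 and 193 in S74N/+ livers. These values overlapped and had the smallest coefficient of variation of the 8 genes over the livers, 18.2%, where counting error alone would give 6.18%. The log2 fold change was −0.15 ± 0.22 (SE, limma adjusted p = 0.892), with a 95% interval of the ratio from 0.651 to 1.25.

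Both IκB family genes among the members had higher mean levels in S74N/+ livers, but their patterns across livers differed. *Nfkbia* encodes IκBα, which holds NF-κB in the cytoplasm and is itself a rapid target of it. It was at 331, 565, 576 and 167 normalized counts in +/+ livers and at 789, 456, 313 and 729 in S74N/+ livers. The lowest 2 of the 8 livers were the 2 of 2.5 months, 1 of each genotype, and 2 S74N/+ livers (3 and 2 months) lay above every +/+ liver. Means were 410 ± 197 and 572 ± 225 (SD, n = 4), and the log2 fold change of 0.55 ± 0.39 (SE) did not pass the test (limma adjusted p = 0.846; exact permutation p = 0.343). It was 0.17 without +/+ replicate 4, 0.80 without S74N/+ replicate 3 and 0.33 in 3-month-old mice alone. The coefficient of variation over the livers was 43.7%, on 179 to 894 reads per liver. Counting error alone, with every read independent, would give 4.42%.

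*Nfkbiz* encodes IκBζ, a nuclear protein of the IκB family that is induced through MyD88 and is needed for transcription of a subset of NF-κB targets. It was at 21.4, 15.0, 36.8 and 34.6 normalized counts in +/+ livers. In S74N/+ livers it was at 45.0, 56.0, 69.1 and 53.8. The lowest S74N/+ liver was above the highest +/+ liver, and the highest of all was the 2.5-month-old S74N/+ liver. Means were 26.9 ± 10.5 and 56.0 ± 9.96 (SD, n = 4), with a log2 fold change of 1.10 ± 0.34 (SE) and a 95% interval of the ratio from 1.28 to 3.58.

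The unadjusted limma p of *Nfkbiz* was 0.00719 and the adjusted p over all genes was 0.846, so the difference did not pass. The exact two-sided permutation p was 0.0286, the smallest that 4 livers against 4 allow. Among all tested genes, 5.17% had an unadjusted p under 0.05 (2.37% with a higher level in S74N/+), and 2.94% had genotypes that did not overlap (1.3% higher in S74N/+). Of the 7 members tested, 1 met each of these criteria. Of all tested genes, 0.555% had a smaller p than *Nfkbiz*. Its levels rest on 16 to 66 reads per liver.

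The *Nfkbiz* difference was of like size within ages. At 3 months the mean was 24.4 in 3 +/+ and 50.5 in 2 S74N/+ livers, a log2 difference of 1.10, and in the 2.5-month-old pair it was 34.6 against 69.1, a log2 difference of 0.98. With age as a covariate the log2 fold change was 1.001 (limma unadjusted p = 0.0214, adjusted p = 0.891). The 2-month-old S74N/+ liver, which has no +/+ counterpart of its age, was at 53.8.

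Of the 11 marker lists summed in the same libraries, those of B cells and of kidney did not overlap between genotypes. Among single tested genes 2.94% did not overlap, and no such share was obtained for sums. The 6 B cell markers, all listed, summed to 82.3 to 145 in +/+ and 181 to 280 normalized counts in S74N/+ livers, mostly from the immunoglobulin gene *Igkc*. The other B cell markers overlapped as single genes, and *Cd79b* alone had a lower mean in S74N/+ livers (8.50, against 9.84 in +/+). The 5 of 7 kidney markers that were listed summed to 220 to 377 in +/+ and 62.0 to 114 in S74N/+ livers, mostly from *Gpx3* and *Kap*. The other kidney markers overlapped as single genes, and *Slc34a1* alone had a higher mean in S74N/+ livers (8.90, against 8.17 in +/+). Monocyte markers (5 of 7 listed) summed to 30.9 to 60.8 in +/+ and 55.7 to 120 in S74N/+ livers, overlapping narrowly, and neutrophil markers (6 of 11 listed) to 50.9 to 150 and 41.2 to 115. The neutrophil markers *Ly6g*, *Mmp8*, *Camp*, *Ngp* and *Ltf* and the monocyte markers *Chil3* and *F13a1* were not listed. Every listed gene has at least 6 reads over the livers, so being listed says little about the presence of a cell type. The part of B cells, kidney cells, monocytes and neutrophils in the *Nfkbiz* values was not tested. In bulk tissue fewer cells of a type and less RNA per cell cannot be told apart.

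**Figure D2:**
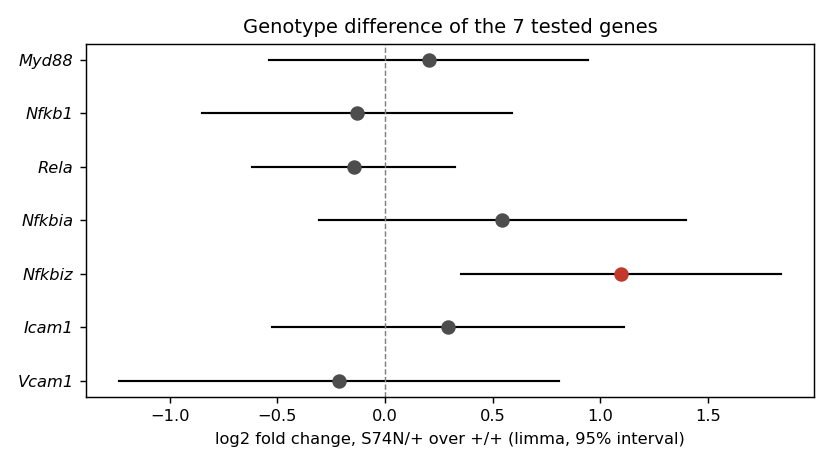
Log2 fold change (S74N/+ over +/+, on log2(normalized count + 1)) of the 7 tested genes with 95% intervals from limma, n = 4 livers of each genotype. The interval of *Nfkbiz* (red, genotypes not overlapping) lies above 0, and the intervals of the other 6 include 0.

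The adhesion molecules did not separate the genotypes. *Icam1*, the endothelial and Kupffer cell ligand of leukocyte β2 integrins, was at 36.4, 26.2, 53.8 and 27.1 in +/+ livers and at 32.1, 72.0, 26.7 and 51.4 in S74N/+ livers. The highest liver was S74N/+ replicate 2, and the groups overlapped over most of their range. The log2 fold change was 0.29 ± 0.38 (SE, limma adjusted p = 0.874), with a 95% interval of the ratio from 0.696 to 2.16. It was 0.041 without S74N/+ replicate 2 and 0.51 without S74N/+ replicate 3.

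*Vcam1*, the ligand of integrin α4β1 on monocytes and lymphocytes, was at 51.3, 57.0, 60.8 and 21.5 in +/+ livers and at 25.7, 44.4, 20.1 and 90.6 in S74N/+ livers. The 2 livers of 2.5 months were again the lowest, and the 2-month-old S74N/+ liver was the highest. The log2 fold change was −0.21 ± 0.47 (SE, limma adjusted p = 0.926), and the 95% interval of the ratio, 0.425 to 1.75, was the widest in log2 units of the 7. The value depended on single livers: it was 0.085 without S74N/+ replicate 3 and −0.62 without S74N/+ replicate 4. Among 3-month-old mice alone it was −0.72, with 2 S74N/+ livers at 25.7 and 44.4 against +/+ livers at 51.3 to 60.8.

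Across the 7 tested members, 4 had a higher and 3 a lower mean in S74N/+ livers, with a median log2 fold change of 0.20, beside 0.012 and 51.3% higher over all tested genes. The median was −0.0025 to 0.49 when single livers were left out, with the lowest value without S74N/+ replicate 1.

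By level, the order was *Nfkbia* (mean of 8 livers 491), *Rela* (254), *Myd88* (60.7), *Vcam1* (46.4), *Nfkbiz* (41.5), *Icam1* (40.7), *Nfkb1* (33.7) and *Tlr2* (5.37). Neighbours in this order were separated beyond the spread of their paired log2 difference only at 2 steps, *Rela* over *Myd88* and *Nfkb1* over *Tlr2*, each in 8 of 8 livers. *Nfkbia* was above *Rela* in 7 of 8 livers, by 0.82 on the log2 scale with an SD of 0.84.

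The 2.5-month-old livers, 1 of each genotype, stood together in several members. *Nfkbia* was at 167 and 313 in them and at 331 to 789 in the other 6 livers. *Vcam1* was at 21.5 and 20.1 against 25.7 to 90.6. *Icam1* (27.1 and 26.7) and *Myd88* (47.6 and 33.4) were in the lower part of the range, whereas *Rela* (268 and 276) was not, and *Nfkbiz* (34.6 and 69.1) differed by genotype between them.

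**Figure D3:**
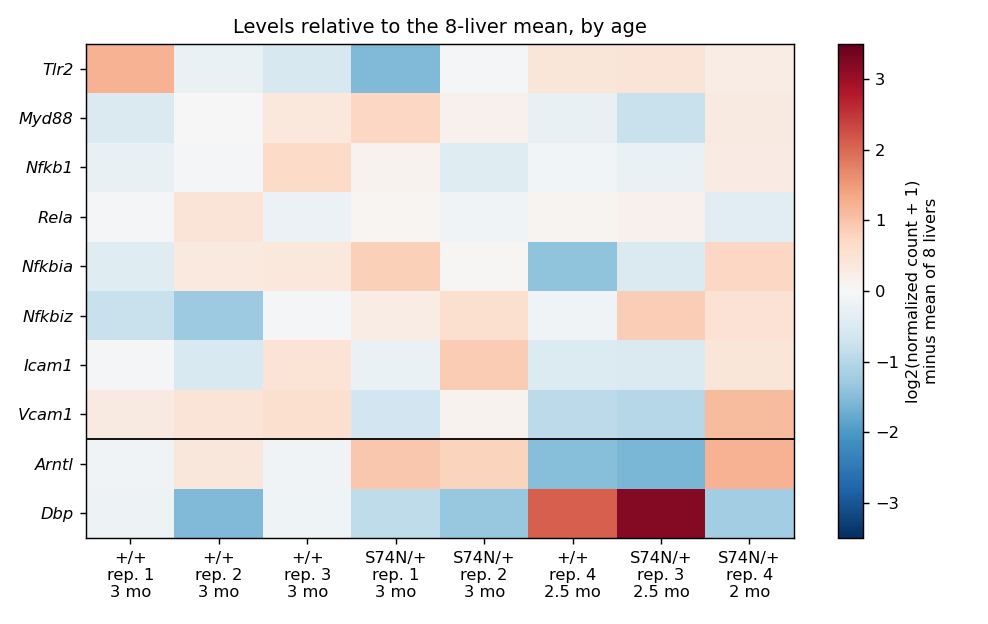
Log2(normalized count + 1) minus the mean of the 8 livers, for the 8 listed genes and, under the line, the clock genes *Arntl* and *Dbp*; each column is 1 liver, ordered by age. In the 2 livers of 2.5 months *Nfkbia*, *Vcam1* and *Arntl* are low and *Dbp* is high.

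The first principal component of the 500 most variable tested genes held 45.9% of their variance and placed the same livers at one end, with scores of −34.1 and −24.1 for the 2.5-month-old +/+ and S74N/+ livers and 36.3 for the 2-month-old S74N/+ liver at the other. Over the 8 livers, *Nfkbia* followed this axis with Pearson r = 0.93 (Spearman rho = 0.95; r = 0.94 without the 2 end livers) and *Myd88* with r = 0.82 (rho = 0.86; 0.99 without them). *Nfkbiz* did not (r = 0.18, rho = 0.21). These correlations are descriptions over 8 livers that share library preparation and scaling.

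Of the circadian clock genes, 2 were looked at after their values had been seen. *Arntl*, which encodes the activator BMAL1, was at 21.5 and 20.1 normalized counts in the +/+ and S74N/+ livers of 2.5 months. In the other livers its genotypes did not overlap, at 56.9, 82.3 and 56.6 in +/+ and 120, 108 and 146 in S74N/+. *Dbp* is a clock output gene whose rhythm runs opposite to that of *Arntl*. It was at 57.9 and 126 in the 2.5-month-old livers and at 3.74 to 11.3 in the others. The labels give no time of day, and the part of the clock in the levels of *Nfkbia* and *Vcam1* was not tested. Age and clock gene level cannot be told apart in these 2 livers.

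An alternative chosen after the values were seen left both 2.5-month-old livers out, with 3 livers of each genotype. The log2 fold change of *Nfkbiz* was then 1.14 (limma unadjusted p = 0.0129, adjusted p = 0.393). In those livers *Arntl* was higher in every S74N/+ liver than in any +/+ liver. The part of the clock in the *Nfkbiz* difference was not tested.

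The members did not move as one block. Over the 21 pairs of tested members, Pearson r across the 8 livers ran from −0.77 (*Rela* with *Icam1*, rho = −0.90) to 0.76 (*Nfkbia* with *Myd88*, rho = 0.88), with a median of 0.16 and 13 positive. *Nfkbia* and *Nfkbiz*, the IκB family genes among the members, had r = 0.05, and −0.50 once each genotype mean was subtracted. All pairs share library and depth, and no p is given.

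Among 6917 genes with a mean of at least 50, those whose pattern over the 8 livers was most like each member were named by the highest r. For *Nfkbia* they were *Slc3a2*, an amino acid transporter subunit, and *Hnf4a*, a hepatocyte transcription factor, both with r = 0.99, and 359 genes had r above 0.9. For *Myd88* they were *Fabp2* and *Nectin1* (both r = 0.97), with 106 genes above 0.9. For *Nfkbiz* they were *Ildr2* (r = 0.92) and *Otc*, the urea cycle enzyme (r = 0.88), and 1 gene was above 0.9. The nearest to *Rela* were *Thoc1* (0.95) and *Cdk18* (0.94), and those to *Nfkb1* were *Gcdh* (0.96) and *Cab39* (0.94). For *Icam1* they were *6820431F20Rik* (0.92) and *Hykk* (0.90), and for *Vcam1* *BC004004* and *Sult1b1* (both 0.92). These r values are the highest of many and describe likeness over these livers alone.

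The wider pathway was read through 6 lists holding 110 genes beside the members, of which 88 were listed and 71 tested. None of the 71 passed the adjusted limma test, 3 had a higher and 4 a lower level in S74N/+ livers at an unadjusted p under 0.05, and 1 had genotypes that did not overlap. The 7 are 9.86% of the 71, beside 5.17% of all tested genes, and the 1 is 1.41%, beside 2.94%. Below, the members are counted in their lists too.

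In the list of Toll-like receptors and co-receptors, 12 of 20 genes were listed and 9 tested, 6 with a higher and 3 with a lower mean in S74N/+ livers (median log2 fold change 0.39, range −1.51 to 0.83). The median was 0.20 without S74N/+ replicate 2 and 0.83 without S74N/+ replicate 3. *Tlr5*, the flagellin receptor, was at 29.4 ± 10.3 in +/+ and 10.6 ± 6.76 in S74N/+ livers (SD, n = 4), and its highest S74N/+ liver, at 20.1, was above the lowest +/+ liver, at 18.7. The log2 fold change was −1.51 ± 0.51 (SE, limma unadjusted p = 0.0109, adjusted p = 0.846) on 5 to 41 reads per liver. *Tlr12*, a receptor for a parasite profilin, was at 55.2 ± 25.6 and 22.1 ± 13.3 (log2 fold change −1.36, unadjusted p = 0.0128, adjusted p = 0.846). Its 4 +/+ livers spanned 28.3 to 89.7 and the S74N/+ livers 10.7 to 37.9. *Lbp*, the serum protein that delivers endotoxin to Cd14 and the most abundant of the list, was at 259 ± 149 and 440 ± 198 (adjusted p = 0.846), and *Cd36*, a scavenger receptor and Tlr2 partner, at 101 ± 10.1 and 88.6 ± 31.1 (adjusted p = 0.857).

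Adaptors, kinases and ubiquitin enzymes (26 of 29 tested) had a median log2 fold change of 0.022, with 14 higher and 12 lower, and a median of −0.037 with 10 higher without S74N/+ replicate 3. *Ticam1*, which encodes TRIF, the adaptor of the MyD88-independent branch, was at 73.4 ± 28.6 in +/+ and 42.4 ± 11.5 in S74N/+ livers (log2 fold change −0.73, limma unadjusted p = 0.0479, adjusted p = 0.846). The 2 most abundant were *Ube2v1*, a ubiquitin-conjugating partner (815 ± 240 and 552 ± 161), and *Tab2*, which links TAK1 kinase to ubiquitin chains (491 ± 58.5 and 623 ± 60.2); both had an adjusted p of 0.846.

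Of the NF-κB subunits, 4 of 5 were tested, with log2 fold changes from −0.15 to 0.16 and a median that took either sign (−0.088 to 0.11) with single livers left out. *Rel*, which encodes c-Rel of lymphoid and myeloid cells, was at 34.2 ± 8.94 and 40.9 ± 19.9 (limma adjusted p = 0.936). The IκB proteins and feedback inhibitors (9 of 13 tested) had 6 higher and 3 lower means and a median of 0.14, which was −0.046 with 4 higher means without S74N/+ replicate 3 and 0.25 without S74N/+ replicate 1. *Nfkbiz* had the highest log2 fold change of the list. *Otulin*, which trims linear ubiquitin chains, was at 219 ± 45.8 and 248 ± 84.6 (adjusted p = 0.911).

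The other NF-κB responsive genes (16 of 28 tested) had 11 higher and 5 lower means and a median of 0.52. The median was 0.11 in 3-month-old mice alone, 0.22 without S74N/+ replicate 4, 0.23 without +/+ replicate 4 and 0.75 without +/+ replicate 3. *Il1rn*, the antagonist of the IL-1 receptor, was at 6.20 ± 2.00 in +/+ livers and at 5.51, 16.0, 23.4 and 46.5 in S74N/+ livers (log2 fold change 1.44 ± 0.64 SE, limma unadjusted p = 0.0435, adjusted p = 0.846). Its lowest S74N/+ liver lay within the +/+ range of 3.74 to 8.39. *Junb*, a subunit of AP-1, was at 28.0 ± 13.03 in +/+ livers and at 89.1, 31.1, 35.7 and 162 in S74N/+ livers (log2 fold change 1.32, unadjusted p = 0.0323, adjusted p = 0.846), so that 2 livers held most of its difference.

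*Bcl2l1*, which encodes the survival protein Bcl-xL, was lower in S74N/+ livers (267 ± 31.2 against 162 ± 57.0, log2 fold change −0.77 ± 0.25 SE, limma unadjusted p = 0.00897, adjusted p = 0.846). *Csf1*, the growth factor of macrophages, was the pathway gene whose genotypes did not overlap. Its +/+ livers were at 29.7 to 55.1 and its S74N/+ livers at 14.7 to 28.6 (log2 fold change −0.64, unadjusted p = 0.0954, adjusted p = 0.846; exact permutation p = 0.0286). The most abundant genes of the list, *Sod2*, the mitochondrial superoxide dismutase (389 ± 218 and 585 ± 371), and *Tnfaip2* (377 ± 51.2 and 357 ± 48.2), overlapped between genotypes. *Sod2* was lowest in the 2.5-month-old livers, at 124 and 162.

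Adhesion molecules of vessel wall and leukocytes (14 of 25 tested) had 8 higher and 6 lower means and a median of 0.081, which was 0.011 without S74N/+ replicate 2 and 0.17 without S74N/+ replicate 3. *Pecam1*, the platelet endothelial adhesion molecule, was at 49.4, 94.5, 39.6 and 77.5 in +/+ livers and at 111, 125, 81.3 and 148 in S74N/+ livers. Of the S74N/+ livers, replicate 3 fell within the +/+ range, and the log2 fold change was 0.88 ± 0.31 (SE, limma unadjusted p = 0.0151, adjusted p = 0.846). Sinusoidal endothelial markers, all 12 listed, summed to 2983 to 3805 in +/+ and 2624 to 3319 in S74N/+ livers in the same libraries. Within this list 5 genes were higher and 7 lower in S74N/+ livers. *Lyve1* was at 37.0 in +/+ and 75.3 in S74N/+ livers (limma unadjusted p = 0.0169). *Eng* was at 244 and 167 (limma unadjusted p = 0.0483), and none of the list passed the adjusted test. *Itgb1*, the β1 integrin subunit, was at 622 ± 73.2 and 732 ± 72.5 (adjusted p = 0.846), and *Alcam* at 448 ± 53.8 and 496 ± 91.6 (adjusted p = 0.887).

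**Figure D4:**
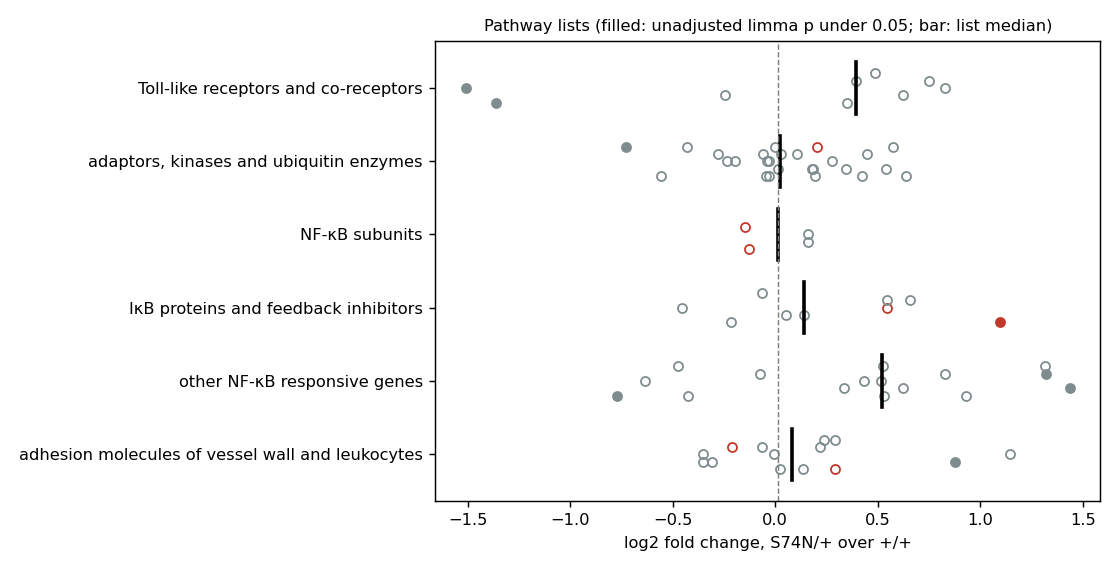
Log2 fold change (S74N/+ over +/+) of every tested gene of the 6 pathway lists, with members in red, other genes in grey, filled circles for an unadjusted limma p under 0.05, black bars for list medians and a dashed line for the median of all tested genes (0.012). List medians lie between 0.014 and 0.52, and each list holds genes on both sides of 0.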

How the data were processed

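Total RNA of whole liver was sequenced with an oligo-dT primed, stranded 3′ kit. Reads were mapped by the authors to GRCm38 (TopHat2 2.0.10, Bowtie 1.0.0, SAMtools 0.1.19) and assigned to GENCODE genes by strand in HTSeq 0.6.1, and DESeq size factors were applied. What was deposited is a signal, the read count of a gene divided by its library's size factor. All values (100%) were whole multiples of 1 read of their liver (tolerance 0.01 reads), so whole reads were recovered. These carry no stated molecular identifiers, and counting errors cover reads only.

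Groups came from the labels. Members were matched by exact symbol, and members and gene lists were chosen with earlier results of these data known. Genotypes were compared with limma 3.58.1 in R 4.3.3 (empirical Bayes with trend, two-sided, genotype as the only term) on log2(normalized count + 1) for the 11174 genes whose mean reached 10, and p-values were adjusted over all of them (Benjamini-Hochberg, threshold 0.05). Fold changes on this scale understate those of low genes. Single values were compared with exact two-sided permutation over all 70 labellings. DESeq2 1.42.0 and edgeR 4.0.16 (quasi-likelihood) on recovered reads, other pseudocounts, filters, scalings and age terms were alternatives, and the tests were checked on simulated data.

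Genes named are the members, *Rragc*, from each pathway list those with an unadjusted p under 0.05 or non-overlapping genotypes and the 2 of highest mean, and the 2 genes most like each member. *Gpx3*, *Kap*, *Slc34a1*, *Igkc*, *Cd79b*, *Lyve1*, *Eng*, *Sox9*, *Arntl* and *Dbp* were named after their values were seen. Neutrophil and monocyte markers that were not listed were named too. Marker lists were compared by summed level. The sums of T and NK cell, erythroid, stellate cell and cholangiocyte markers overlapped between genotypes. As single genes, 2 of 9 tested stellate cell, 1 of 5 erythroid and 1 of 12 Kupffer cell markers did not overlap. Each was lower in S74N/+ livers, beside 2.94% of all tested genes that did not overlap in either direction. Promoters came from RefSeq.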

Additional observations from a re-analysis of the deposited data

Results flagged for a closer look

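In 20 values (the 8 listed genes, 11 marker lists and the recovered reads) the highest and lowest liver of each genotype were compared with the other 3, 40 groups in all. Of these, 3 held a liver whose gap to its nearest neighbour was above the 95% critical value of Dixon's test for 4 values, where chance gives about 2. *Vcam1* was at 4.49 on the log2(normalized count + 1) scale in +/+ replicate 4, the 2.5-month-old liver, and at 5.71 to 5.95 in the other +/+ livers. Cholangiocyte markers (5 of 6 listed) summed to 6.88 on the log2 scale in S74N/+ replicate 3, the other 2.5-month-old liver, and to 8.50 to 8.57 in the other S74N/+ livers. That sum was mostly *Sox9*, with a mean of 250 normalized counts over the 8 livers, and the other listed markers had means of 26.4 or less. Recovered reads were 4313076 in +/+ replicate 3 and 6177759 to 6509465 in the other +/+ libraries. Of the members, *Nfkb1* was highest in that library and turned from −0.13 to 0.068 (log2 fold change) without it.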

How the results depend on the processing

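No member passed the adjusted test under any alternative run. *Nfkbiz* kept its direction and an unadjusted p under 0.05 in 12 of 12 alternatives (log2 fold change 0.98 to 1.14, adjusted p 0.393 to 0.891 with limma, edgeR or DESeq2) and with each liver left out (0.86 to 1.27, adjusted p 0.274 to 0.9999). A filter on a mean of at least 50 removed it, with *Nfkb1*, *Icam1* and *Vcam1*. With single livers left out, the log2 fold change was −0.24 to 0.068 for *Nfkb1* (positive without +/+ replicate 3), −0.0025 to 0.49 for *Myd88* (negative without S74N/+ replicate 1) and −0.62 to 0.085 for *Vcam1* (positive without S74N/+ replicate 3), and the difference of *Tlr2* was −0.69 to 0.0085 (positive without S74N/+ replicate 1); the cause was not tested. *Nfkbia* (0.17 to 0.80), *Icam1* (0.041 to 0.51) and *Rela* (−0.23 to −0.017) kept their direction. *Vcam1* ran from −0.72 (3-month-old mice alone) to −0.053 over the other alternatives.

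Over all genes, 1 passed in the limma test as described (578 at an unadjusted p under 0.05), 0 without the trend (603 unadjusted) and 10 with DESeq2. With age as a covariate 0 passed (415 unadjusted), and with age as a factor 3 passed. In 3-month-old mice alone 0 passed (641 unadjusted). Without both 2.5-month-old mice, chosen after seeing the data, 0 passed (1199 unadjusted). With single livers left out, 2 passed without S74N/+ replicate 3 (1690 unadjusted). Without each of the other 7 livers 0 passed (315 to 759 unadjusted). The median r between members was 0.16, and 0.23 after subtracting genotype means. The median log2 fold change of all genes stayed between −0.020 and 0.025. No paired analysis was possible because replicate numbers only follow the order of the samples and pair no livers. *Tlr2* rested on 1 to 13 reads per liver.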
